A study of Homo sapiens with 4 samples.

Results

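The messages of S100 calcium-binding proteins were followed in the gastric cancer line NUGC3, of human origin, when short hairpin RNA had lowered NIPBL, which encodes the loader of the cohesin ring. The 10 genes described are S100P, S100A2, S100A4, S100A6, S100A8, S100A9, S100A10, S100A11, S100A14 and S100A16, out of 21 S100 family genes and 53777 gene rows in the table. They were selected from the family by name, with the expression values of these same libraries in view, so every difference between knockdown and scramble given for them is a description and carries no test. No numerical threshold was used: S100A7 and S100A13 lie outside the 10 although their levels are above those of several of them.

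The NIPBL knockdown group held 2 libraries of NUGC3 cells, 1 made with hairpin 1 and 1 made with hairpin 7, and the scramble group held 2 libraries of NUGC3 cells given a scramble hairpin. Labels of all 4 libraries carry the letters DOX, which the labels do not explain, and no time or dose is given. Apart from a suffix, scramble 2 is labelled like scramble 1. Separate cultures are not stated for either group, so SDs and p-values cover library-to-library spread that may be technical. In the knockdown group that spread also holds any difference between hairpin 1 and hairpin 7. Values are FPKM, in which reads are divided by the length of the transcript and the size of the library, so levels can be set beside each other between genes. Read depth is unknown.

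S100 proteins are small proteins with a pair of EF-hand calcium-binding loops. They work as dimers: calcium opens a surface on each subunit that binds target proteins inside the cell, and several members are also secreted and act on receptors such as the receptor for advanced glycation end products and toll-like receptor TLR4. Most of the genes sit in a cluster on the long arm of chromosome 1, on both sides of the epidermal differentiation complex, while S100P lies on chromosome 4. Several members are abundant in epithelia and in carcinomas of the digestive tract.

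RefSeq start sites (build GRCh38.p14) were found for all 10 genes, 14 sites in all, 9 of the genes being on chromosome 1 and 1 on chromosome 4. The 250 bases before a start are printed for the gene with the largest difference (S100P), for the genes of the calprotectin pair that differed most between the hairpins (S100A8 and S100A9), and for S100A2 and S100A10, which differed from them in their promoter letters. Capitals mark exact matches, on either strand, to TATAAA or CCAAT and to GGGCGG or TGACTCA, and each run reads 5′ to 3′ on the gene's strand. The window of S100P is chr4:6693628-6693877 (plus strand), that of S100A8 is chr1:153391074-153391323 (minus strand, the second of 3 listed starts), that of S100A9 is chr1:153357604-153357853 (plus strand), that of S100A2 is chr1:153565845-153566094 (minus strand, the first of 2 listed starts) and that of S100A10 is chr1:151993860-151994109 (minus strand).
S100P: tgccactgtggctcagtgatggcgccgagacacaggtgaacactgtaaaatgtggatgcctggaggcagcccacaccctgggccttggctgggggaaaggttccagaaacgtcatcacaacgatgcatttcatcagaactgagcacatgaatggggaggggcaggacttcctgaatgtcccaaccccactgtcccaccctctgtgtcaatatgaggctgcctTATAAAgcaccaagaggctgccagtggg
S100A8: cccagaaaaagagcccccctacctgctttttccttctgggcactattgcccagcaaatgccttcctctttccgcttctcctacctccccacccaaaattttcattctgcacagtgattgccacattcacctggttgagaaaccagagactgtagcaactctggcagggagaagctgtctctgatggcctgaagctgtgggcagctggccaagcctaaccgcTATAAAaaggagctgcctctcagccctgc
S100A9: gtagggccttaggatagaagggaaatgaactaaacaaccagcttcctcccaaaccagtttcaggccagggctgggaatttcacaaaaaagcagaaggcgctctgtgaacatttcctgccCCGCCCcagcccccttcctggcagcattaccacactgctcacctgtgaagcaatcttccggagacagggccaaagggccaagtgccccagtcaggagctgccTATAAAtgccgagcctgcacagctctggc
S100A2: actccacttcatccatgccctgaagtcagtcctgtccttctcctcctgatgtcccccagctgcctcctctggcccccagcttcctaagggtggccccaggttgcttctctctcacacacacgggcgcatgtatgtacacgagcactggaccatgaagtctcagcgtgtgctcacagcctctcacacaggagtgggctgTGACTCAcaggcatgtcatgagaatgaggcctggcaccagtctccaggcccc
S100A10: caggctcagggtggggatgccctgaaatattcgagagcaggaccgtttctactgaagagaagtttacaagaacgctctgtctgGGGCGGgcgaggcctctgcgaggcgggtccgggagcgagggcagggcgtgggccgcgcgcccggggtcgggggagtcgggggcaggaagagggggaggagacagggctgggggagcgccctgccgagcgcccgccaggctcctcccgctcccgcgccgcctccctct

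TATAAA, the core letters of a TATA box, began at position -28 from the start in S100P, at -29 in S100A9, at -29 in the printed window of S100A8 and at -31 in S100A4. In all it was found in 5 of the 14 windows, 2 of them overlapping windows of S100A8 that hold the same match, against 10.7% of 35116 windows of that length over all RefSeq starts. GGGCGG, the letters of a GC box, was found in 5 windows, those of S100A6 (at -90, -79 and -75), S100A10 (at -167), S100A11 (at -68), S100A9 (at -131, on the opposite strand) and 1 of S100A16, against 42.6% of all windows. TGACTCA, an AP-1 site whose opposite strand reads TGAGTCA, was found in 1 window, that of S100A2 at -52, against 4.20% of all windows. CCAAT was found in 2 windows, against 32.0% of all windows. These are letter matches, and binding of a factor was not measured.

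NIPBL itself checks the labels. It was at 7.27 FPKM with hairpin 1 and 9.17 FPKM with hairpin 7, against 23.92 and 23.11 FPKM in the scramble libraries (log2 change -1.42 ± 0.14, SE, limma, adjusted p = 0.0218). Leaving out scramble 1 gave an adjusted p of 0.257 and leaving out scramble 2 gave 0.261 (limma), so the call was lost, with the sign kept. Of all 12834 genes tested (mean of at least 1 FPKM), 328 passed at an adjusted p under 0.05 (limma), 186 higher and 142 lower in knockdown libraries. At an unadjusted p under 0.05 the share of all genes tested was 26.4%, with 13.6% higher and 12.8% lower, and the counts of gene lists at that p are to be read against it. Leaving out scramble 1 gave 0 calls, leaving out scramble 2 gave 0, leaving out the hairpin 1 library gave 4532 and leaving out the hairpin 7 library gave 2915.

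The cells carried the markers of an epithelium. All 10 epithelial markers were detected, among them KRT8 at 1459 to 1993 FPKM in knockdown and 2031 to 2045 FPKM in scramble libraries. Of 10 epithelial markers 0 passed the test (limma, 4 higher and 1 lower at an unadjusted p under 0.05). Gastric and intestinal markers were low: the 13 markers summed to 3.21 to 6.10 FPKM in knockdown and 3.22 to 4.0 FPKM in scramble libraries. CDX2, most of that sum in scramble, was at 2.71 and 1.46 FPKM in knockdown and 2.80 and 2.99 FPKM in scramble libraries. TFF1 was at 2.48 and 1.02 FPKM in knockdown, against 0.00 and 0.17 FPKM in scramble libraries. MUC5AC, the surface mucin of the stomach, did not exceed 0.03 FPKM. Because S100A8, S100A9 and S100A12 are also known as genes of neutrophils and monocytes, 12 myeloid markers were read beside them. They summed to 1.22 and 0.67 FPKM in knockdown and 1.00 and 0.66 FPKM in scramble libraries, and 8 of them, PTPRC, SPI1, CSF3R and MPO among them, were listed at 0 in every library. The 10 mesenchymal markers included COL1A1 at 7.34 to 9.39 FPKM in knockdown and 5.75 to 6.57 FPKM in scramble libraries, with COL1A2, COL3A1 and POSTN listed at 0. Of the other marker lists, 1 gastric or intestinal, 0 myeloid and 2 mesenchymal genes were high enough to test, and 0 passed (limma, 0 at an unadjusted p under 0.05).

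In the scramble libraries the 10 genes spanned levels from the most abundant messages of the cell to low ones. S100A9, a subunit of calprotectin, was the highest at 4381.78 and 4429.16 FPKM, 14th among protein-coding genes by its mean. S100A2, an epithelial S100 protein that binds p53 and p63, followed at 1559.14 and 1481.08 FPKM. S100A11, which binds annexin A1, was at 1263.25 and 1266.40 FPKM and S100A6, also called calcyclin, at 1237.15 and 1163.75 FPKM. S100A11 exceeded S100A6 by a ratio of means of 1.05, the closest pair in the order, and their ranges did not overlap.

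S100A10, which has lost calcium binding and pairs with annexin A2, had scramble values of 579.29 and 604.53 FPKM. S100A16 averaged 328 ± 2.90 and S100A14 288 ± 9.67 FPKM (SD, n = 2). Far lower were S100A8, the partner of S100A9 in calprotectin, at 49.77 and 50.17 FPKM, and S100A4, known as a metastasis-associated protein, at 18.07 and 17.32 FPKM. S100P was the lowest at 9.61 and 6.33 FPKM. For all 9 pairs of neighbours in this order the ranges of the scramble libraries were apart.

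**Figure D1:**
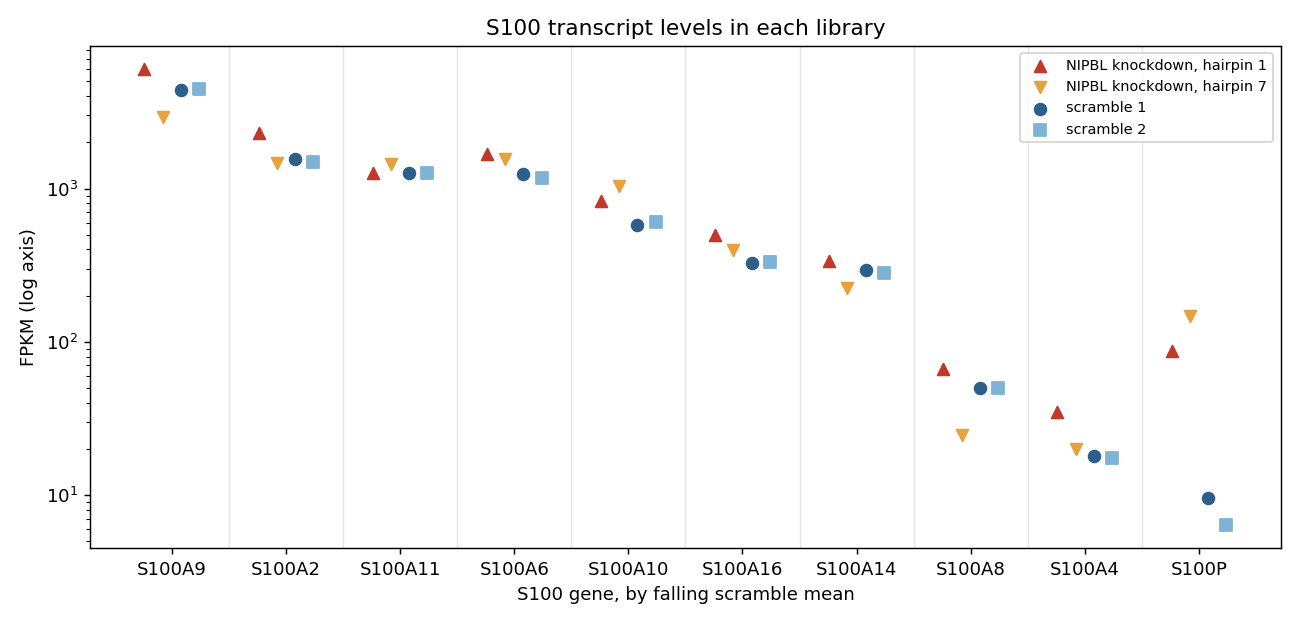
FPKM on a log axis for the 10 S100 genes in falling order of their scramble mean, with 1 point for each of the 4 libraries and the knockdown libraries on the left of each gene. S100P was at 87.37 and 146.99 FPKM in knockdown and at 9.61 and 6.33 FPKM in scramble libraries, while S100A9 was the highest of the 10 genes in every library.

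S100P showed the largest difference of the 10 genes. S100P is a secreted and cytoplasmic S100 protein, first found in placenta, that binds ezrin and is abundant in pancreatic and gastric carcinomas. It was at 87.37 FPKM with hairpin 1 and 146.99 FPKM with hairpin 7, against 9.61 and 6.33 FPKM in the scramble libraries. Both knockdown libraries lay far above both scramble libraries. The ratio of means was 14.7, with 11.0-fold for hairpin 1 and 18.4-fold for hairpin 7 over the scramble mean, and the log2 change was 3.70 ± 0.31 (SE). By level, S100P stood at place 1069 and 529 among protein-coding genes in the knockdown libraries, against 7257 and 8548 in the scramble libraries. Its scramble libraries differed by 0.53 on the log2 scale, more than those of the other 9 genes, which differed by at most 0.09. In RNA from whole cultures, a change in the share of cells that express a gene and a change in RNA per cell cannot be told apart.

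In 5 further genes both hairpins lay above both scramble libraries. S100A10 was at 828.80 FPKM with hairpin 1 and 1035.03 FPKM with hairpin 7, against 579.29 and 604.53 FPKM in scramble, with a log2 change of 0.65 ± 0.15 (SE). S100A6 was at 1683.41 and 1563.33 FPKM in knockdown libraries, against 1237.15 and 1163.75 FPKM in scramble, with a log2 change of 0.43 ± 0.12 (SE). S100A16 was at 499.50 and 397.57 FPKM in knockdown libraries, against 326.01 and 330.11 FPKM in scramble, with a log2 change of 0.44 ± 0.14 (SE). In these 3 abundant genes the groups were separate, and the knockdown mean was 1.35-fold (S100A6) to 1.57-fold (S100A10) that of scramble.

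S100A4 was at 34.56 FPKM with hairpin 1 and 20.06 FPKM with hairpin 7, against 18.07 and 17.32 FPKM in scramble, so that hairpin 1 was 1.95-fold and hairpin 7 only 1.13-fold the scramble mean. S100A11 was at 1269.21 FPKM with hairpin 1 and 1451.93 FPKM with hairpin 7, against 1263.25 and 1266.40 FPKM in scramble. The hairpin 1 value of S100A11 was 100.3% of the scramble mean, and the hairpin 7 value was 114.8% of it. S100A11 and S100A6 each overlap an antisense gene in GENCODE 29, AL450992.1 and BX470102.1, which did not exceed 0.06 FPKM in any library.

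In the other 4 genes the hairpins lay on opposite sides of the scramble libraries. S100A9 was at 6045.74 FPKM with hairpin 1 and 2933.24 FPKM with hairpin 7, against 4381.78 and 4429.16 FPKM in scramble. S100A8 was at 66.43 FPKM with hairpin 1 and 24.76 FPKM with hairpin 7, against 49.77 and 50.17 FPKM in scramble. Both subunits of calprotectin thus had the same order of libraries, with hairpin 1 the highest and hairpin 7 the lowest. The subunits differed greatly in level: S100A9 was 91.0-fold and 118-fold S100A8 in the knockdown libraries with hairpin 1 and hairpin 7, and 88.0-fold and 88.3-fold in scramble 1 and 2.

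S100A14, an epithelial member, was at 337.66 FPKM with hairpin 1 and 225.82 FPKM with hairpin 7, against 294.50 and 280.83 FPKM in scramble. S100A2 was at 2292.02 FPKM with hairpin 1 and 1468.12 FPKM with hairpin 7, against 1559.14 and 1481.08 FPKM in scramble, so the hairpin 7 value lay just under the lower scramble value. The log2 changes over both hairpins were -0.29 ± 0.45 for S100A8, -0.07 ± 0.36 for S100A9, -0.06 ± 0.21 for S100A14 and 0.27 ± 0.24 for S100A2 (SE). Each of these is smaller than its SE or close to it.

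**Figure D2:**
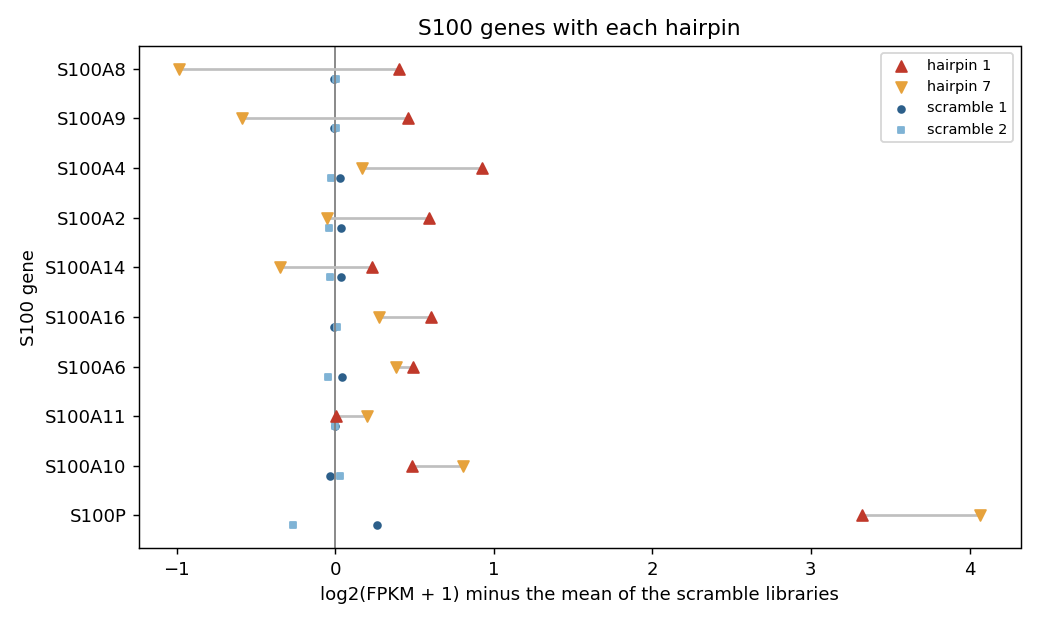
Difference of each library from the mean of the scramble libraries, on log2(FPKM + 1), for the 10 S100 genes ordered by hairpin 7 minus hairpin 1. Triangles are the hairpin libraries, joined by a grey line, and small marks are the scramble libraries: S100A8 has the widest gap between hairpins at -1.39, and S100P is at 3.32 and 4.07.

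Over the 10 genes, hairpin 1 was above both scramble libraries in 10, against 44.4% of the genes tested. Hairpin 7 was above both in 6, against 41.9%, and below both in 4, against 47.0%. Both hairpins were above both scramble libraries in 6 of the 10 genes, against 29.5% of genes tested, and both were below in 0, against 30.8%. Hairpin 1 above and hairpin 7 below was the pattern of 4 of the 10, against 10.7% of genes tested. In limma 1 of the 10, S100P, had an adjusted p under 0.05, against 2.56% of genes tested in either direction, 1.45% in the higher and 1.11% in the lower. That count was 0 with no filter on low values. With a library left out it moved in both directions, as did the count over all genes tested. S100P also lost its call when a scramble library was left out. With any 1 library left out, its log2 change was 3.32 to 4.07. As the genes were chosen on this contrast, nothing is read from these counts.

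The median log2 change of the 10 genes was 0.35, beside -0.01 over all genes tested. It was 0.49 with hairpin 1 and 0.19 with hairpin 7, beside 0.01 and -0.03 over all genes tested. The size of the difference between hairpins had a median of 0.61 on the log2 scale over the 10 genes, beside 0.23 over all genes, and the difference between scramble libraries had a median of 0.06, beside 0.07 over all genes. In 7 of the 10 genes hairpin 7 was lower than hairpin 1, and in 3 (S100P, S100A10 and S100A11) it was higher. Each hairpin is 1 library, so whether the difference between hairpins would repeat was not tested.

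Summed over the 10 genes, S100 messages took 1.92% of the FPKM of gene rows with hairpin 1 and 1.50% with hairpin 7, against 1.44% in scramble 1 and 1.44% in scramble 2. S100A9 alone made up 46.0% of that sum with hairpin 1 and 31.7% with hairpin 7, against 45.1% and 46.0% in scramble.

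Of the 11 other S100 genes, 5 reached a mean of 1 FPKM and were tested, and 4 were listed at 0 in every library (S100B, S100G, S100Z and S100A7L2). These 11 are what the choice of the 10 left over, so their tests are not free of that choice. S100A13, which takes part in the release of growth factors that lack a signal sequence, fell: it was at 170.11 and 156.92 FPKM in knockdown libraries, against 314.68 and 305.74 FPKM in scramble. The groups were apart, at 164 ± 9.33 FPKM in knockdown and 310 ± 6.32 FPKM in scramble (SD, n = 2 each). The log2 change of S100A13 was -0.92 with an SE of 0.10 (limma, adjusted p = 0.0274). Its adjusted p was 0.429 without scramble 1 and 0.430 without scramble 2, with the same sign (limma). S100A13 overlaps S100A1, which runs on the opposite strand in GENCODE 29, and the strand setting of the libraries is not given in the sources used here; S100A1 was listed at no more than 0.88 FPKM.

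Of the remaining 4 tested S100 genes 0 passed (limma, 0 at an unadjusted p under 0.05). With hairpin 1 the log2 difference from the scramble mean was 1.65 for S100A12 and 0.88 for S100A7. With hairpin 7 it was -0.25 and 0.04, each from 1 library. S100A7, the antimicrobial psoriasin, was at 257.06 FPKM with hairpin 1 and 142.79 FPKM with hairpin 7, against 126.65 and 152.06 FPKM in scramble. S100A12, calgranulin C, was at 15.95 FPKM with hairpin 1 and 3.53 FPKM with hairpin 7, against 4.75 and 4.04 FPKM in scramble. For S100A7 the hairpin 7 value lay within the scramble range, and for S100A12 it lay below it. S100A7A, a near copy of S100A7 whose reads can be shared with it, was at 3.78 and 2.43 FPKM in knockdown libraries, against 1.62 and 2.10 FPKM in scramble. S100A3, which overlaps S100A4 on the same strand in GENCODE 29, was at 5.30 and 4.04 FPKM in knockdown libraries, against 3.74 and 3.33 FPKM in scramble. Over all 15 tested S100 genes, 10 of them the chosen ones, hairpin 1 was above both scramble libraries in 14, against 44.4% of genes tested, S100A13 being the exception. Hairpin 7 was above both in 8 of the 15, against 41.9%, and below both in 6, against 47.0%.

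**Figure D3:**
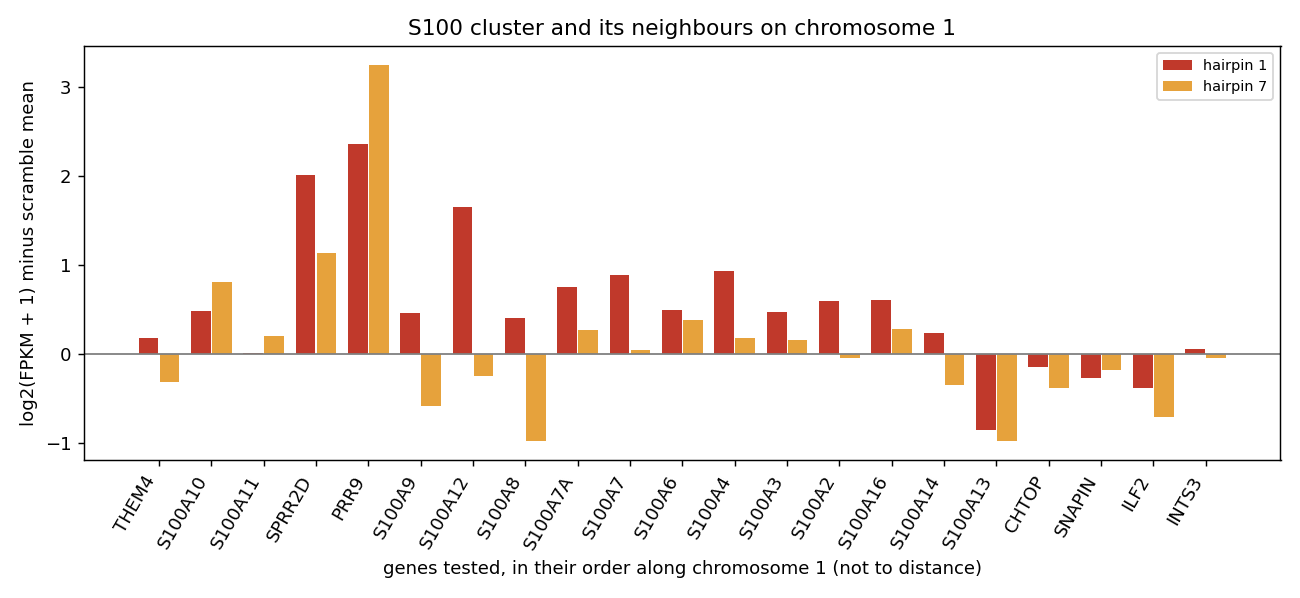
Log2 difference from the scramble mean with each hairpin for the genes tested in and around the S100 cluster, in their order along chromosome 1 and not to distance. S100A9, S100A12 and S100A8 are next to each other with hairpin 1 above and hairpin 7 below 0. The same signs are seen elsewhere in the figure, in S100A2, S100A14, THEM4 and INTS3. S100A13, at the right-hand end of the S100 genes, is the only S100 gene below 0 with both hairpins (-0.86 and -0.98).

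Along chromosome 1 the order of S100 genes, taken from RefSeq, runs from S100A10 and S100A11, across the epidermal differentiation complex, to S100A9, S100A12, S100A8, S100A7A, S100A7, S100A6, S100A5, S100A4, S100A3, S100A2, S100A16, S100A14, S100A13 and S100A1. S100A14 and S100A13 are neighbours in this order, with log2 differences of 0.23 for S100A14 against -0.86 for S100A13 with hairpin 1, and of -0.35 against -0.98 with hairpin 7. Of the 10 protein-coding neighbours beyond the ends of the cluster and the 10 around S100P, 19 had a row and 13 were tested, of which 0 passed (limma, 6 at an unadjusted p under 0.05, against 26.4% of all genes tested). ILF2, which encodes a subunit of a double-stranded RNA-binding complex, was at 213.70 and 170.63 FPKM in knockdown libraries, against 274.75 and 283.29 FPKM in scramble (log2 change -0.54 ± 0.14, SE, limma, adjusted p = 0.10). Directly beside S100P, MRFAP1L1 was at 30.51 and 28.69 FPKM in knockdown libraries, against 24.26 and 25.10 FPKM in scramble (limma, adjusted p = 0.183). Next to it BLOC1S4 was at 9.99 and 9.70 FPKM in knockdown libraries, against 5.86 and 6.49 FPKM in scramble (log2 change 0.60, limma, adjusted p = 0.0721). KIAA0232 and MAN2B2, also within 5 genes of S100P, had log2 changes of 0.47 and 0.67 (limma, adjusted p of 0.11 and 0.142), and TBC1D14 had -0.32 (limma, adjusted p = 0.145).

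The epidermal differentiation complex, which lies inside the S100 cluster and encodes proteins of the cornified envelope, was almost silent in scramble libraries. Its 37 genes with a row summed to 13.86 and 23.63 FPKM in knockdown libraries, against 0.93 and 0.76 FPKM in scramble, and 24 were listed at 0 in every library. Its 2 genes tested, PRR9 and SPRR2D, averaged under 1 FPKM in scramble and passed the filter on low values only through their knockdown libraries, so they had to be higher there and their tests are no support. PRR9, a proline-rich protein gene, was at 7.22 and 14.24 FPKM in knockdown libraries, against 0.61 and 0.59 FPKM in scramble, a log2 difference of 2.81. SPRR2D, a small proline-rich envelope gene, was at 3.59 and 1.51 FPKM in knockdown libraries, against 0.17 and 0.11 FPKM in scramble. IVL, the envelope protein involucrin, was at 0.17 and 1.95 FPKM in knockdown libraries and listed at 0 in scramble. All 7 S100 fused-type genes, filaggrin (FLG) among them, were too low to test.

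**Figure D4:**
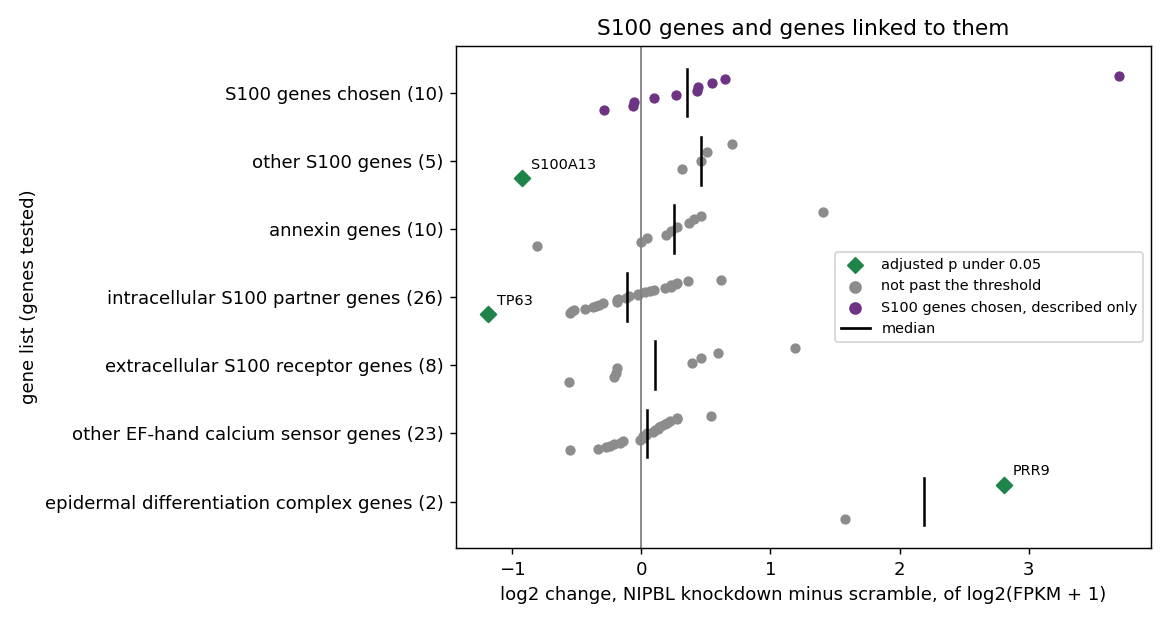
Log2 change, NIPBL knockdown minus scramble, of each gene tested in the lists linked to S100 proteins, with the median of each list as a black bar and diamonds for genes with an adjusted p under 0.05. S100A13 (-0.92) and TP63 (-1.19) passed, the diamond of PRR9 (2.81) is of a gene that reached the test only through its knockdown values, and the 10 S100 genes chosen have a median of 0.35.

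Of 30 genes for intracellular partners 26 were tested, and 1 fell and 0 rose at an adjusted p under 0.05 (limma). Over all genes tested the shares were 1.11% lower and 1.45% higher, and 26 genes are too few to set against them. At an unadjusted p under 0.05 (limma), 5 of the 26 were higher and 6 lower, against 13.6% and 12.8% of all genes tested. The median log2 change of the 26 was -0.11. The gene that fell was TP63, which encodes p63, a p53-family factor of basal epithelium. TP63 was at 6.74 and 8.23 FPKM in knockdown libraries, against 18.47 and 18.04 FPKM in scramble (log2 change -1.19 ± 0.13, SE, limma, adjusted p = 0.0283). Its adjusted p was 0.335 without scramble 1 and 0.349 without scramble 2 (limma).

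EZR, the S100P-binding membrane linker ezrin, was at 716.31 and 602.81 FPKM in knockdown libraries, against 963.16 and 945.51 FPKM in scramble (log2 change -0.54 ± 0.13, SE, limma, adjusted p = 0.0943). The non-muscle myosin gene MYH14 had a log2 change of 0.61 ± 0.12, and PPFIBP1, the S100A4-binding liprin beta-1, of -0.33 ± 0.10 (SE, limma, adjusted p of 0.0738 and 0.137). AHNAK, the giant scaffold bound by the complex of S100A10 and annexin A2, was at 153.97 and 158.64 FPKM in knockdown libraries, against 131.24 and 126.00 FPKM in scramble (limma, adjusted p = 0.146). None of these 4 genes passed.

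Of 12 annexin genes, whose products bind membranes with calcium and pair with S100 dimers, 10 were tested and 0 passed (limma, 3 higher and 0 lower at an unadjusted p under 0.05, against 13.6% and 12.8% of all genes), with a median of 0.25. ANXA10, 1 of those 3, was at 4.77 and 1.80 FPKM in knockdown libraries, against 0.62 and 0.42 FPKM in scramble, and reached the test only through its knockdown values. ANXA2, the partner of S100A10, was at 2332.22 and 2044.78 FPKM in knockdown libraries, against 1896.42 and 1925.71 FPKM in scramble. ANXA2 was thus 2.81-fold and 1.98-fold S100A10 with hairpin 1 and hairpin 7, against 3.27-fold and 3.19-fold in the scramble libraries. ANXA8, ANXA4 and ANXA10 had log2 changes of 0.37, 0.46 and 1.41, and ANXA11, a partner of S100A6, of 0.23; their adjusted p (limma) lay between 0.113 and 0.216.

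Of 14 receptor genes for secreted S100 proteins 8 were tested and 0 passed (limma, 3 higher and 1 lower at an unadjusted p under 0.05), with a median of 0.10. AGER, the receptor for advanced glycation end products, was at 1.06 and 0.79 FPKM in knockdown libraries, against 1.79 and 1.88 FPKM in scramble, and reached the test only through its scramble values. TLR4 was too low to test, at 1.31 and 1.10 FPKM in knockdown libraries, against 0.70 and 0.64 FPKM in scramble. ALCAM and NPTN, surface proteins reported to bind S100A8 and S100A9, had log2 changes of 0.59 ± 0.14 and 0.39 ± 0.11 (SE, limma, adjusted p of 0.09 and 0.113). CD68, a lysosomal scavenger receptor, was at 31.48 and 37.71 FPKM in knockdown libraries, against 12.41 and 17.08 FPKM in scramble (limma, adjusted p = 0.0528).

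Of 31 other EF-hand calcium sensor genes 23 were tested and 0 passed (limma, 3 higher and 2 lower at an unadjusted p under 0.05), with a median of 0.05. CALM2, a calmodulin gene, was at 447.04 and 379.88 FPKM in knockdown libraries, against 611.29 and 598.00 FPKM in scramble (limma, adjusted p = 0.0848). CALB1, the buffer calbindin, was at 68.51 and 76.78 FPKM in knockdown libraries, against 46.14 and 53.51 FPKM in scramble (limma, adjusted p = 0.0867). RCN1 and CALU, calcium-binding proteins of the secretory pathway, each had a log2 change of 0.28.

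Among the 10 genes, S100P, S100A8 and S100A9 varied by at least 1 on the log2 scale over the 4 libraries. The genes whose centred profiles were most like that of S100P, by Euclidean distance over 4 libraries, were ATF3 (distance 0.72), ID3 (0.77) and RRAD (0.80). ATF3 was at 175.82 and 179.46 FPKM in knockdown libraries, against 14.77 and 15.36 FPKM in scramble, so it lacked the gap between hairpins that S100P had. Most like S100A9 were PLAU, which encodes urokinase (distance 0.08), HBE1 (0.09) and GALNT7 (0.09). PLAU was at 135.11 FPKM with hairpin 1 and 66.96 FPKM with hairpin 7, against 99.83 and 105.34 FPKM in scramble. Most like S100A8 were HIST1H2BH (distance 0.08), a histone gene with near copies, PLLP (0.19) and GLTP (0.20). With 4 libraries, such likeness is a description of these profiles.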

How the data were processed

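RNA of 4 NUGC3 libraries was measured by RNA sequencing. The authors deposited FPKM per gene with 2 decimals; STAR and RSEM are named without versions per the submitters' processing notes, and no source used here gives the genome build, annotation, strand setting or filters. How reads shared by near copies were split is not stated either, so S100A7 and S100A7A are uncertain. The 291033 of 344810 rows that name no gene took 8.47% to 9.27% of the FPKM of a library and were left out. FPKM sums were 682076 to 749446 per library, which give no read depth, so no counting intervals are given.

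On the scale log2(FPKM + 1), limma 3.58.1 under R 4.3.3 compared the groups (eBayes with a mean trend, two-sided, Benjamini-Hochberg over the 12834 genes averaging 1 FPKM or more, 2 residual and 2.87 prior degrees of freedom, threshold 0.05). This scale understates the change of low genes. Log2 changes are knockdown minus scramble, and folds are ratios of mean FPKM. Simulated data with the same spread in both groups were used to check that the fit returns known log2 changes. They do not bear on p-values where the hairpin libraries spread more widely than the scramble libraries.

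The 10 S100 genes and the gene lists were chosen with earlier results of these data known. Genes named were the 10, NIPBL, other S100 genes averaging 1 FPKM or more, list genes that passed or up to 4 with the smallest p, chromosome neighbours and the 3 most similar profiles. S100A1, S100A7L2, S100B, S100G, S100Z, AHNAK, EZR, MYH14, PPFIBP1, SPRR2D, ANXA2, TLR4, IVL, FLG and the markers given were singled out after their values were seen. Alternatives were another pseudocount (0.1), no filter, quantile and median-of-ratios scaling, no mean trend, averaged scramble libraries and leaving out each library. Promoters are RefSeq windows matched by symbol.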

Additional observations from a re-analysis of the deposited data

Results flagged for a closer look

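The hairpins moved to opposite sides of both scramble libraries in 4 of the 10 S100 genes, with hairpin 1 above and hairpin 7 below. Hairpin 7 minus hairpin 1 was -1.39 for S100A8, -1.04 for S100A9, -0.64 for S100A2 and -0.58 for S100A14, on log2(FPKM + 1). Scramble 2 minus scramble 1 was 0.01, 0.02, -0.07 and -0.07 for the same genes in that order. Each hairpin is 1 library, so the difference was not tested. NIPBL was at 7.27 FPKM with hairpin 1 and 9.17 FPKM with hairpin 7, and the part of that difference in these values was not tested.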

How the results depend on the processing

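The number of genes passing was 328. It was 1 with no filter on low values, 0 with the scramble libraries averaged and 0 to 4532 with a library left out. Calls in the lists linked to S100 proteins numbered 3 (S100A13, TP63 and PRR9, the last of which reached the test only through its knockdown values), against 0 with no filter, 0 with the scramble libraries averaged and 0 to 38 with a library left out. NIPBL kept its sign but lost its call with no filter (log2 change -1.42) and with the scramble libraries averaged (-1.42), and its log2 change was -1.57 to -1.27 with a library left out. The adjusted p over alternatives ranged from 0.00783 to 0.453 for S100A13, from 0.01 to 0.353 for TP63 and from 0.00783 to 0.25 for PRR9 (limma), with the sign kept throughout. The median log2 change of the 10 S100 genes was 0.35, and it was 0.19 without the hairpin 1 library and 0.49 without the hairpin 7 library, which are the medians of the other hairpin alone, against 0.31 to 0.41 under the other alternatives. With a hairpin library left out the sign of 4 genes turned: S100A2 was at -0.05 without NIPBL knockdown 1, and S100A8 at 0.40, S100A9 at 0.46 and S100A14 at 0.23 without NIPBL knockdown 2, while no scaling turned the sign of any of the 10. The cause of lost calls was not tested. A fit without a scramble library takes its residual spread from the hairpin pair alone. A fit without a hairpin library takes it from the scramble pair alone. Over the genes tested, the log2 difference between the hairpin libraries had an SD of 0.45, and that between the scramble libraries 0.28. With a library left out, the lone library of its group is assumed to vary like the others. No paired analysis was possible because the labels give the groups no replicate number in common. Read depth is unknown, so what it limits cannot be stated.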
